A study of Mus musculus with 9 samples.

Results

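Hox genes, described here by cluster and paralog group, were taken as the genes whose platform symbol consists of Hox, a cluster letter and a number, over probe sets with a single symbol. They were 33 genes on 48 probe sets, of 18193 genes on 34945 such probe sets. Where a gene had several, the one with the highest mean normalised log2 value over all 9 arrays stands for it. For every Hox gene the mean of the deposited signals gave the same choice. There were 9 HoxA genes, 9 HoxB genes, 7 HoxC genes and 8 HoxD genes, which RefSeq places on mouse chromosomes 6, 11, 15 and 2. Other Hox genes were not analysed here. Another 3 probe sets carried symbols of more than 1 Hox gene and were left out.

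Renal vesicles, the first epithelial stage of the nephron, were laser captured from kidneys of wild-type mouse embryos (5 arrays) and of Lim1 mutant embryos (4 arrays), all at E12.5, with about 30 to 50 vesicles per sample. Lim1 (current symbol Lhx1) encodes a DNA-binding LIM homeodomain protein made in forming nephrons. The labels call the samples biologically independent but give neither the mutant allele, the strain, nor the number of embryos or litters behind a sample. RNA was amplified in 2 rounds and hybridised to an Affymetrix array, and signals are given as deposited, on a linear scale.

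Hox genes encode homeodomain transcription factors that give cells their position along the body axis. Mammals carry them in the clusters HoxA, HoxB, HoxC and HoxD, and genes of different clusters that descend from the same ancestral gene form a paralog group and share its number. Within a cluster, genes of low number are generally used in anterior regions and genes of high number in posterior ones, and Hox proteins bind DNA together with TALE homeodomain partners of the Pbx, Meis and Pknox families. In the kidney, group 11 genes act in the nephron progenitors, group 10 genes are known from the stroma, and Hoxb7 is known from the Wolffian duct and the ureteric bud.

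Array medians lay between 144 and 195. The 10 vesicle markers examined, Lhx1 among them, were all bright enough to test, and without Lhx1 their summed signal ran from 105114 to 254678 in the wild type and from 131481 to 147796 in the mutants. Of the 10, 4 were higher and 6 lower in the mutants by their log2 differences, with a median of -0.42. None passed the adjusted test at the probe set standing for its gene. Dll1 (-1.33) and Jag1 (-0.52) were lower at an unadjusted p under 0.05, which 2.93% of all tested genes reached in that direction. The part of vesicle content in the Hox values was not tested. The mutated gene was at 2327 to 17587 in the wild type and 6.88 to 10.5 in the mutants at its dimmer probe set, and at 1696 to 18555 and 4108 to 4951 at its brighter probe set, so only the first separated the genotypes. The dimmer probe set passed the adjusted test, at a log2 difference of -6.64 ± 0.57 (adjusted p = 0.00329 in limma), and the brighter did not. Which of these probe sets lies in the altered part of the gene is not given in the labels. Wild-type arrays 1 and 3 had stood apart in an earlier analysis of these data, and counts are therefore also given without them. In captured tissue, fewer cells of a type and less RNA per cell cannot be told apart.

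Most Hox genes of paralog groups up to 11 were bright enough to be tested, and most of those beyond were dim. Bright enough means a mean log2 signal at or above the 40th percentile of all probe sets. Of the 33 Hox genes, 26 reached it, beside 13226 of all 18193 genes. Whether these shares differ was not tested. All 9 genes of groups 9 to 11 passed this filter, as did 8 of the 9 in groups 5 to 8 and 8 of the 10 in groups 1 to 4, but only 1 of the 5 in groups 12 and 13. The 7 that did not pass were Hoxd1, Hoxa4, Hoxb7, Hoxd12, Hoxa13, Hoxb13 and Hoxc13. These ranges of paralog numbers were chosen after the values were seen. Above the 75th percentile on all 9 arrays were 9 of the 33 genes, with none in groups 1, 7, 8 and 11 to 13. How many of all genes did so was not counted, so the 9 cannot be called many or few.

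Signals of different probe sets cannot be ranked as levels of different genes. Hoxa9 shows why: its main probe set read 27971 to 60020 and its other probe set 583 to 1397 on the same arrays. A dim probe set therefore sets no limit on the level of its gene. The counts of bright and dim genes describe these probe sets.

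**Figure D1:**
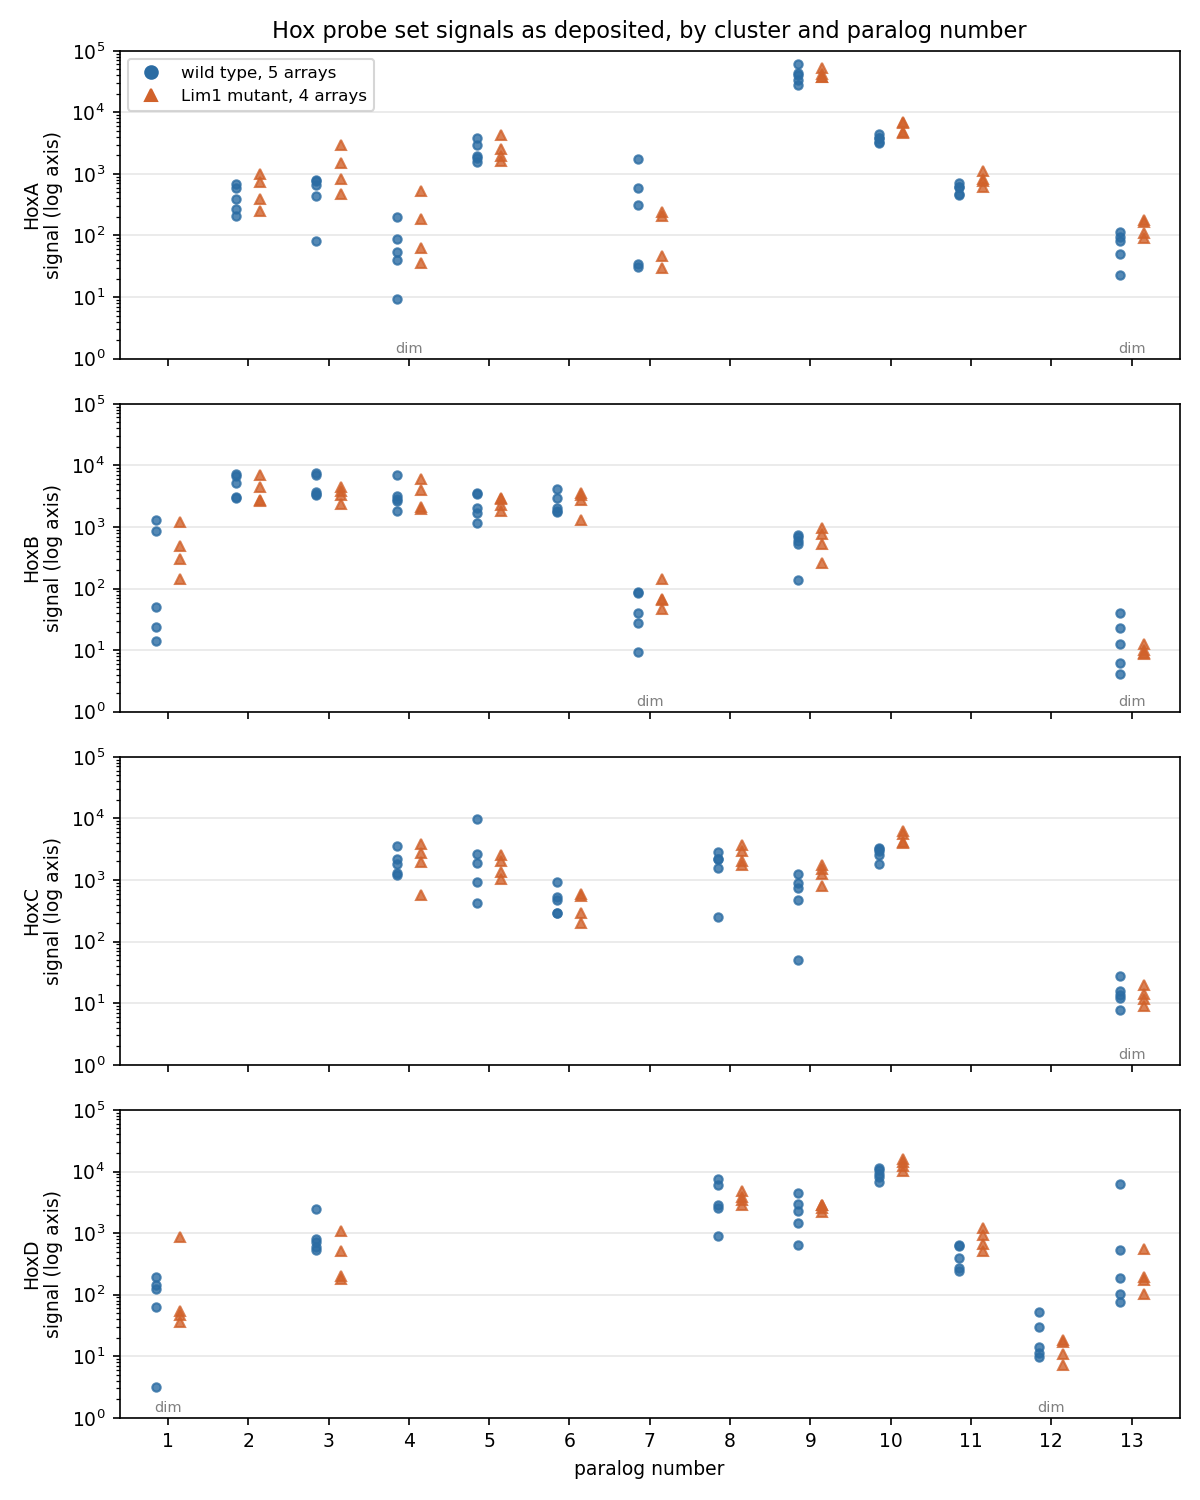
Signals of the 33 Hox genes as deposited (log axis) against paralog number, 1 panel per cluster, with circles for the 5 wild-type arrays and triangles for the 4 mutant arrays. The word dim marks the 7 genes below the filter, and 4 of these belong to groups 12 and 13.

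At the posterior end, Hoxd12, Hoxb13 and Hoxc13, which are known from the tail, limb and urogenital outlets rather than the kidney, never read above 52.7 on any array. Hoxa13 read 23.3 to 114 in the wild type and 90.0 to 179 in the mutants. Hoxd13 was the only tested gene of these groups, and 1 array read far above the others. It read 6292 on wild-type array 1, and 540, 103, 184 and 76.2 on wild-type arrays 2 to 5. The mutant arrays read 175, 102, 195 and 553, and the other Hoxd13 probe set was dim on every array. Its log2 difference of mutant minus wild type was -0.79 ± 1.03 (SE, adjusted p = 0.927 from limma).

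No Hox gene passed the test for a difference between mutant and wild type. The lowest adjusted p of the 26, from limma over 27022 probe sets, was 0.696. Over all those probe sets 9 passed, or 0.0333%, so the comparison as a whole yielded few calls. An unadjusted p under 0.05 was reached by 3 Hox genes, all higher in the mutants, where 4.8% of the 13226 tested genes reached it in that direction. No Hox gene reached it in the lower direction, where 2.93% of genes did. Differences were above 0 for 17 Hox genes and below 0 for 9, and 56.5% of all tested genes lay above 0. The median over the Hox genes was 0.18, beside 0.07 over all tested genes. With median centring of the arrays 14 Hox genes lay above 0 and 12 below.

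The 3 genes that reached an unadjusted p under 0.05 were the 3 measured members of paralog group 10: Hoxa10, Hoxc10 and Hoxd10. They lie in different clusters. Their log2 differences were 0.61, 0.85 and 0.54. The count of Hox genes at an unadjusted p under 0.05 was also 3 without wild-type arrays 1 and 3. It was 1 with median centring, and with the replicate number as a block, which also leaves out wild-type array 5. It was also 1 without any one of wild-type arrays 1, 2 and 5 or mutant arrays 2 and 3, and it was 2 without wild-type array 4.

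Hoxc10 read 3014, 3342, 3218, 1818 and 2529 on wild-type arrays 1 to 5. It read 5511, 4199, 6192 and 3944 on mutant arrays 1 to 4. Each mutant array lay above every wild-type array. The means were 2784 ± 623 (SD, n = 5) and 4962 ± 1070 (n = 4), a log2 difference of 0.85 ± 0.30 with a 95% interval of 0.19 to 1.51. The adjusted p was 0.696 in limma, and the exact permutation p (two-sided) was 0.00794, the smallest that 5 arrays against 4 can give.

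Hoxa10 read 3279, 3215, 4503, 3804 and 3855 on the wild-type arrays. On the mutant arrays it read 4780, 6794, 6945 and 4630. The groups again did not overlap, although mutant array 4 and wild-type array 3 lay close together. The means were 3731 ± 522 (n = 5) and 5787 ± 1252 (n = 4), a log2 difference of 0.61 ± 0.26 with a 95% interval of 0.04 to 1.19 (adjusted p = 0.737 in limma, exact permutation p = 0.0159). A second Hoxa10 probe set did not share this difference: it varied between 10.1 and 3723 and read -0.56 ± 1.26. With both probe sets averaged the Hoxa10 difference was 0.03, and with median centring of the arrays its groups overlapped.

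Hoxd10 read 6767, 8292, 11508, 10548 and 8967 in the wild type. The mutant arrays read 12438, 14460, 16240 and 10195. Mutant array 4 fell below wild-type arrays 3 and 4, so the groups overlapped. The means were 9217 ± 1867 (n = 5) and 13333 ± 2606 (n = 4), a log2 difference of 0.54 ± 0.22 with a 95% interval of 0.06 to 1.03 (adjusted p = 0.73 in limma, exact permutation p = 0.0476). For all 3 genes mutant array 3 was the highest array and mutant array 4 the lowest of the mutants. Groups without overlap, mutants higher, were thus found for 2 of 26 Hox genes, against 1.8% of all tested genes. No Hox gene had its mutants wholly below the wild type, against 0.968% of all tested genes. The 12 stromal markers examined, a tissue in which group 10 genes are known, summed to between 18705 and 144267 in the wild type, highest on array 3, and to between 12723 and 48988 in the mutants, and their part in these values was not tested.

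In group 11, the paralog group whose combined loss impairs kidney formation, both measured genes had differences above 0 that did not pass. Hoxd11 read 245, 394, 615, 647 and 270 in the wild type and 516, 662, 1207 and 914 in the mutants. Mutant array 1 lay below wild-type arrays 3 and 4. The log2 difference was 0.82 ± 0.45, with a 95% interval of -0.18 to 1.82 (adjusted p = 0.795 in limma, exact permutation p = 0.0556). Hoxa11 read 615, 609, 469, 463 and 715 in the wild type and 623, 1102, 769 and 813 in the mutants, where mutant array 1 lay within the wild-type range. Its log2 difference was 0.41 ± 0.41, with a 95% interval of -0.49 to 1.31 (adjusted p = 0.895 in limma, exact permutation p = 0.159), and the difference was 0.24 without mutant array 2. In RefSeq the spans of Hoxd10 and Hoxd11 overlap, and whether either probe set lies in the shared stretch was not examined here.

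**Figure D2:**
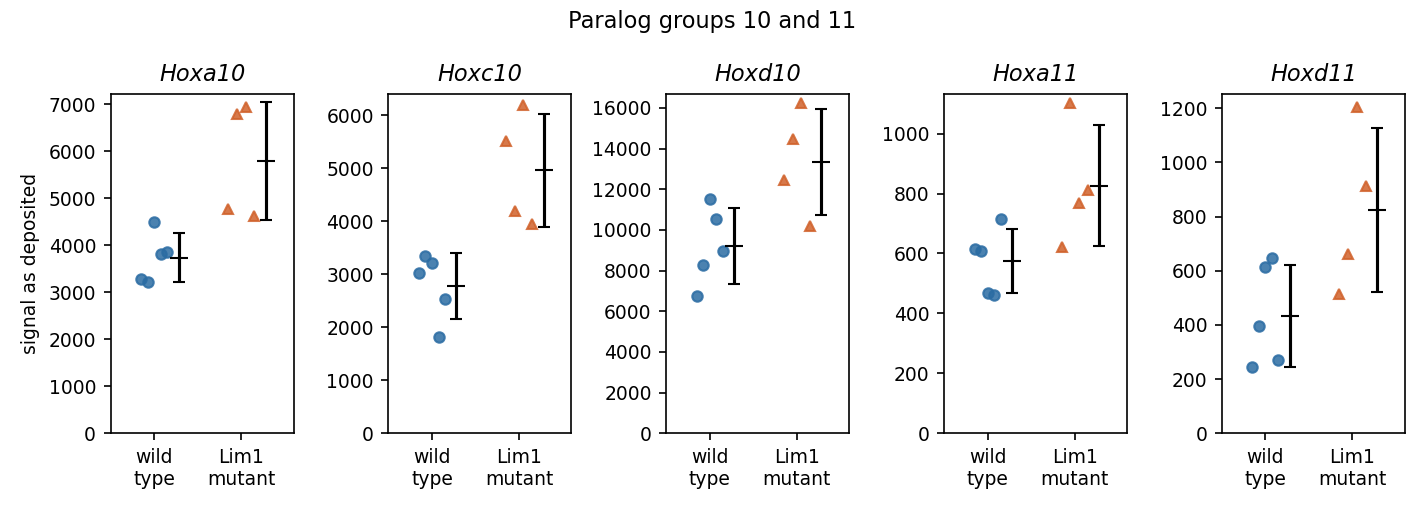
Signal as deposited of the 5 measured genes of paralog groups 10 and 11 on each array (circles, wild type; triangles, Lim1 mutant), with the mean and SD of each group at the right of its points. Hoxa10 and Hoxc10 have no mutant array within the wild-type range, while Hoxd10, Hoxa11 and Hoxd11 have at least 1.

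The stretches just upstream of these genes were taken from RefSeq (build GRCm38.p6), whose promoter table held 19 of the 33 Hox genes in 21 entries. Hoxc10 was not among them. They are shown for Hoxa10, Hoxd10 and Hoxd11, so that the groups with the differences above can be read beside their own upstream sequence, as the 250 bases before each annotated start, 5′ to 3′ on the gene's strand. Capitals mark matches on either strand to TAATTA, the core bound by LIM homeodomain proteins, TTTATG, which reads CATAAA on the other strand and is a core bound by posterior Hox proteins, TATAAA, which is the TATA box and reads TTTATA on the other strand, and CCAAT, which reads ATTGG on the other strand. Hoxa10 and Hoxd11 have 2 annotated starts each.
Hoxa10, upstream start, minus strand, chr6:52240855-52241104: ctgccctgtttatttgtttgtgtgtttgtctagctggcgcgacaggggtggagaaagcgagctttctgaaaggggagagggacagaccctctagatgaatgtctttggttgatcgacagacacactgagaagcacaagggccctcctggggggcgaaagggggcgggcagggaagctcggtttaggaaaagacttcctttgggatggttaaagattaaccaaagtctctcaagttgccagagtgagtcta
Hoxa10, downstream start, minus strand, chr6:52234940-52235189: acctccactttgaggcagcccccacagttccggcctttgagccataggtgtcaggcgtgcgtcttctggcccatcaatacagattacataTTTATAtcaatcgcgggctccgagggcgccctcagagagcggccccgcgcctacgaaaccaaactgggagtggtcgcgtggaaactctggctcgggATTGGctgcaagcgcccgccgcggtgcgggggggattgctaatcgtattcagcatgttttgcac
Hoxd10, plus strand, chr2:74691641-74691890: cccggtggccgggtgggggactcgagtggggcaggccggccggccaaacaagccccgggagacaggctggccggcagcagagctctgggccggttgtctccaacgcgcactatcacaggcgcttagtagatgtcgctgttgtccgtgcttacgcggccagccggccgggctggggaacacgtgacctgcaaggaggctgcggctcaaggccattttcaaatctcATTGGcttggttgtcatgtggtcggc
Hoxd11, upstream start, plus strand, chr2:74679308-74679557: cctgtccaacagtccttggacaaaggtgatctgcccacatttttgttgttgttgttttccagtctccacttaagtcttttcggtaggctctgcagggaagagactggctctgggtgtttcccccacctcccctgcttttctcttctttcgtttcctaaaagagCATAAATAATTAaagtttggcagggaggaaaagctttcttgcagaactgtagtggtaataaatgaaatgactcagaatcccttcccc
Hoxd11, downstream start, plus strand, chr2:74682073-74682322: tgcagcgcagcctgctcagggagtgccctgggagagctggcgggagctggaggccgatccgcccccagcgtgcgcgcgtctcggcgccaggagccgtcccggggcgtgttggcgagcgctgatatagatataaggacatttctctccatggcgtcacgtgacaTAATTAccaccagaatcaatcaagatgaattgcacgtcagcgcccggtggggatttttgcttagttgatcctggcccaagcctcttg

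TAATTA occurred in both Hoxd11 stretches and in no other Hox stretch of the table, against 4.84% of the 32851 promoters of that length. In the upstream Hoxd11 stretch it directly follows a CATAAA, which together form the unbroken run of capitals. TTTATG occurred in 3 of the 21 Hox entries, against 10.76% of all promoters, and TATAAA in 2, against 12.37%. CCAAT occurred in 11 of the 21, against 33.85% of all promoters. The Hoxd10 stretch and the downstream Hoxa10 stretch both carry it, while the upstream Hoxa10 stretch and the Hoxa11 stretch, not shown, hold none of these motifs. A match is a run of letters and was not tested for binding.

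Group 9 genes, which have members in all 4 clusters, also had differences above 0, but none reached an unadjusted p under 0.05. Hoxa9 read 42768, 27971, 39981, 60020 and 33394 in the wild type and 37696, 42707, 51697 and 37531 in the mutants. The groups overlapped almost fully, and the difference of 0.09 ± 0.18 had the narrowest interval of any Hox gene, -0.31 to 0.50. Hoxc9 read 755, 468, 50.6, 1266 and 906 in the wild type and 1262, 1723, 813 and 1539 in the mutants. Its difference of 1.27 ± 0.71 (95% interval -0.29 to 2.83, adjusted p = 0.797 in limma) was 0.63 without wild-type array 3.

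Hoxd9 read 2958, 2261, 648, 4539 and 1438 in the wild type and 2808, 2555, 2196 and 2849 in the mutants, a difference of 0.36 ± 0.49. Hoxb9 read 732, 692, 140, 590 and 531 in the wild type and 773, 531, 258 and 971 in the mutants, a difference of 0.20 ± 0.55. In both, wild-type array 3 gave the lowest signal of all 9 arrays. Without that array the differences of Hoxd9 and Hoxb9 were -0.02 and -0.16, so the direction of both turned with 1 array.

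**Figure D3:**
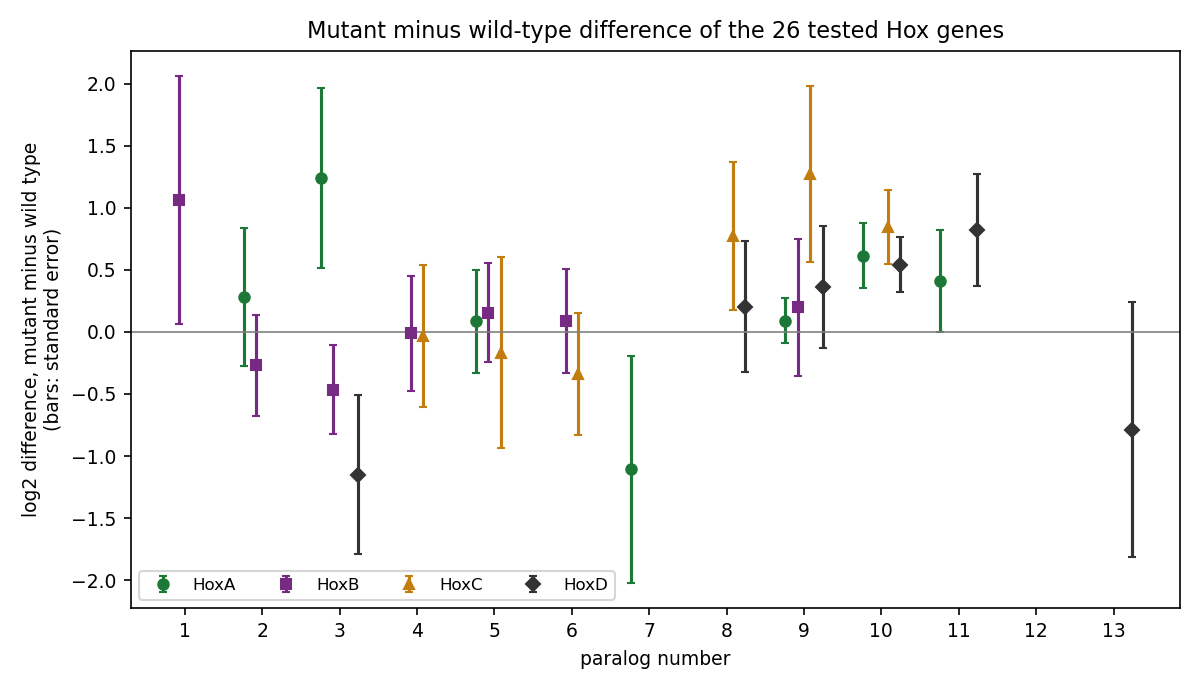
Log2 difference, mutant minus wild type, with its standard error for the 26 tested Hox genes against paralog number, with 1 symbol per cluster. The 9 genes of groups 9 to 11 lie above 0, from 0.09 to 1.27. Genes of lower number lie on both sides, and Hoxd13, the only tested gene of higher number, lies at -0.79.

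Read by position along the axis, the 9 tested genes of groups 9 to 11 had a median difference of 0.54, those of groups 5 to 8 a median of 0.09 over 8 genes (5 above 0 and 3 below), and those of groups 1 to 4 a median of -0.02 over 8 genes (3 above 0 and 5 below). All 9 in groups 9 to 11 lay above 0. That count was 8 with median centring, with array weights, without wild-type arrays 1 and 3 and without mutant array 4, and 7 without wild-type array 3 alone. The differences between these ranges were not tested. Hoxd13, the only tested gene of higher number, was at -0.79 ± 1.03.

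Among the central genes, those of HoxB had differences near 0 with wide intervals. Hoxb4, Hoxb5 and Hoxb6, which pattern the trunk, had differences of -0.01 ± 0.46, 0.16 ± 0.40 and 0.09 ± 0.42. Hoxa5, of the same part of the axis, was at 0.09 ± 0.41, though its other probe set read 1.01 ± 0.62. Hoxc8 had a difference of 0.77 ± 0.60 and Hoxd8 one of 0.20 ± 0.53, with -0.16 at the other Hoxd8 probe set. Hoxa7 spread widely within the wild type, from 30.6 to 1761, and its difference of -1.11 had a standard error of 0.91. Hoxc4, Hoxc5 and Hoxc6 had differences of -0.03, -0.17 and -0.34, with standard errors of 0.57, 0.77 and 0.49.

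Hoxb7 could not be followed as a marker of the ureteric bud lineage. Its single probe set read 28.1, 40.4, 84.7, 88.6 and 9.39 in the wild type and 66.0, 67.1, 143 and 45.9 in the mutants, below the filter in both. Other bud genes were measured. The 12 examined had a summed signal of 17737 to 79906 in the wild type and 8677 to 18721 in the mutants. The highest wild-type sum was that of array 2, where Calb1 alone read 39640. Of the 10 tested, 2 had differences above 0 and 8 below, and none passed the adjusted threshold. At an unadjusted p under 0.05 there was 1 of the 10, lower, where 2.93% of all tested genes were lower. This was Emx2, at 1617 to 11077 in the wild type and 867 to 1250 in the mutants, a difference of -2.16 ± 0.50. Gata3, which lay below the filter and was not tested, read 4.44 to 10.7 in the mutants and 15 to 2141 in the wild type.

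At the anterior end, genes of group 3, which pattern the hindbrain and pharyngeal region, had differences of either sign in different clusters. Hoxd3 read 533, 585, 2495, 710 and 816 in the wild type and 177, 199, 1099 and 505 in the mutants. All but 1 of the mutant arrays lay below every wild-type array, and mutant array 3 lay second highest of all. The difference was -1.15 ± 0.64, with a 95% interval of -2.56 to 0.26 (adjusted p = 0.797 in limma), and it was -0.78 without wild-type array 3. Hoxa3 stood at 1.24 ± 0.73, and its other 3 probe sets read 1.13, 0.32 and 0.20. Hoxb3 stood at -0.47 ± 0.36, with 0.09 at its other probe set. Hoxa2 and Hoxb2 had differences of 0.28 and -0.27, and Hoxb1, at 14 to 1302 in the wild type, one of 1.06 (95% interval -1.13 to 3.25).

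By cluster, the median difference was 0.28 over 7 HoxA genes, 0.09 over 7 HoxB genes, 0.37 over 6 HoxC genes and 0.28 over 6 HoxD genes. These medians depended on the arrays used. That of HoxA was 0.05 without mutant array 3, 0.11 without wild-type array 2 and 0.58 without mutant array 1. That of HoxD was 0.19 to 0.41 with each array left out, and 0.06 without wild-type arrays 1 and 3. To set whole clusters side by side, each gene's log2 value was expressed relative to its own average on all 9 arrays, and the median over the genes of a set was taken as its level on an array. It showed no cluster in which the groups separated. HoxB ranged from -0.52 to 0.66 within the wild type alone. Groups 9 to 11 ranged from -0.33 to 0.01 on the wild-type arrays and from 0.15 to 0.32 on the mutant arrays. This last set was formed with the differences known, and its separation is a description of these arrays.

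**Figure D4:**
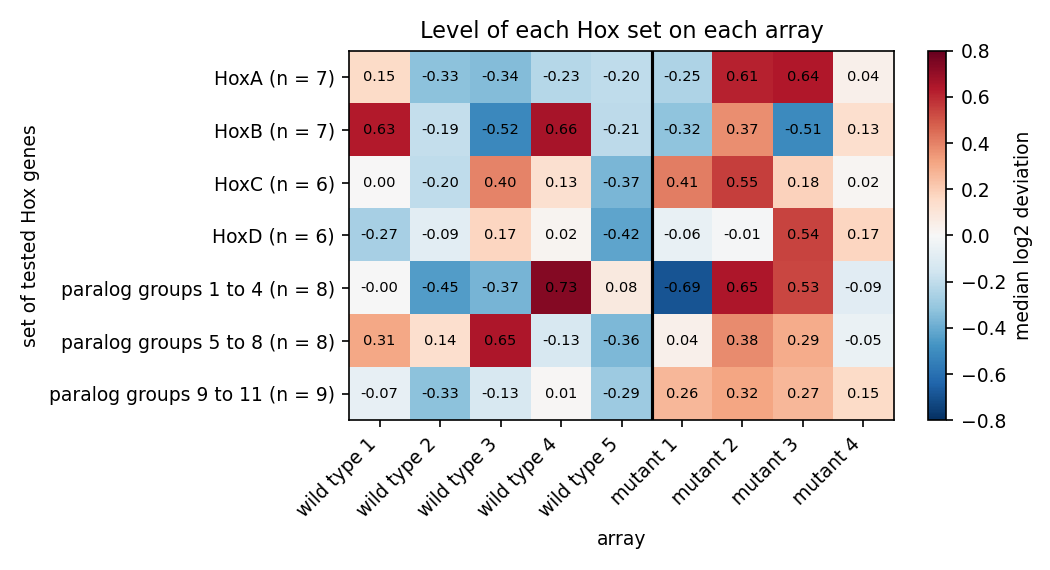
Level of each set of tested Hox genes on each array, as the median log2 deviation of its genes from their own averages (red, above; blue, below), with the number of genes in brackets. Groups 9 to 11 are at 0.15 to 0.32 on the mutant arrays and at -0.33 to 0.01 on the wild-type arrays, and HoxC is also above 0 on all mutant arrays, at 0.02 to 0.55, but overlaps the wild type at -0.37 to 0.40.

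Noncoding transcripts of the clusters were named by their own symbols, and 3 of 8 sought had a probe set: Hoxa11os, Hoxb5os and Hoxd3os1. None passed the test. Hoxb5os, a transcript antisense to Hoxb5 and Hoxb6, had the lowest p among all Hox cluster transcripts measured, coding genes included. It read 18530, 17223, 17348, 27498 and 9692 in the wild type and 29836, 51841, 51753 and 57638 in the mutants. Every mutant array lay above every wild-type array, under each of the 3 scalings tried. The means were 18058 ± 6335 (n = 5) and 47767 ± 12267 (n = 4), a log2 difference of 1.41 ± 0.28 with a 95% interval of 0.81 to 2.02 (adjusted p = 0.286 in limma, exact permutation p = 0.0159).

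For Hoxb5 and Hoxb6, whose RefSeq spans Hoxb5os overlaps, the 95% intervals were -0.72 to 1.03 and -0.83 to 1.01. The difference between Hoxb5os and these genes was not tested. Hoxa11os, antisense to Hoxa11, was at 0.28 ± 0.37, and Hoxd3os1 at 1.53 ± 1.06 with wild-type signals from 12.1 to 1513. Hoxa11os and Hoxd3os1 each had a second probe set, dim in both groups.

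The TALE cofactors are the DNA-binding partners of Hox proteins, and 7 of 9 sought could be tested. None passed the test. Differences were above 0 for 6 and below 0 for 1, with a median of 0.70, beside 56.5% above 0 over all tested genes. At the probe set standing for each gene, an unadjusted p under 0.05 was reached by 4, all higher in the mutants. These were Pbx3, Meis1, Meis2 and Meis3, and over all tested genes 4.8% reached it in that direction. Groups without overlap, mutants higher, made up 1.8% of all tested genes.

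Pbx3 read 5005, 9220, 7239, 15318 and 12626 in the wild type and 26060, 20158, 24460 and 21013 in the mutants, with no overlap. Its log2 difference was 1.33 ± 0.31 (adjusted p = 0.38 in limma), and its other probe set read 1.27 ± 0.55. Meis1 read 4755, 4181, 2895, 4188 and 3048 in the wild type and 6182, 6285, 7848 and 6676 in the mutants, again with no overlap, a difference of 0.85 ± 0.25 (adjusted p = 0.647 in limma). Its other 2 probe sets read -0.91 ± 0.79 and -0.07 ± 0.50, and with all 3 averaged the difference was -0.04. Meis2 read 5244, 10472, 12082, 11045 and 9995 in the wild type and 14802, 15970, 15056 and 14787 in the mutants, a difference of 0.70 ± 0.25 (adjusted p = 0.696 in limma), with 0.79, 0.51 and -0.57 at its other probe sets.

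Meis3 passed the filter with low signals, at 37.4 to 220 in the wild type and 172 to 432 in the mutants, with a difference of 1.30 ± 0.49. Pbx2, Pknox2 and Pknox1 had differences of 0.55 ± 0.35, 0.34 ± 0.58 and -0.21 ± 0.58, and Pbx4 lay below the filter. The other probe sets of Pbx2 read -0.015 ± 0.47 and 0.0051 ± 0.51. The probe sets of Pbx3 thus gave like values. Those of Meis1 and Meis2 differed in sign, and the other probe sets of Pbx2 did not share its difference.

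**Figure D5:**
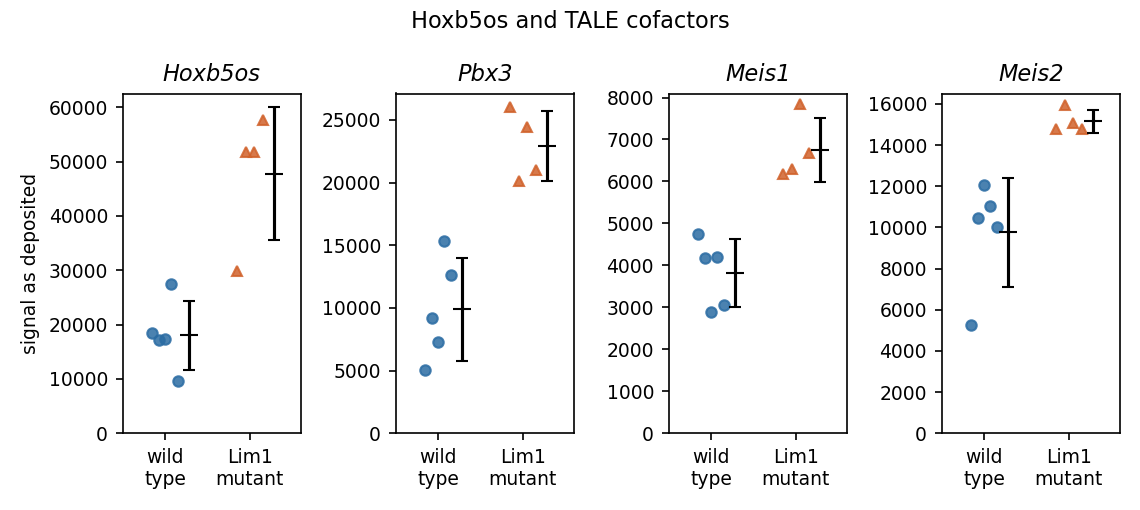
Signal as deposited of Hoxb5os and of the TALE cofactors Pbx3, Meis1 and Meis2 at the probe set representing each gene (circles, wild type; triangles, Lim1 mutant), with the mean and SD of each group. In all 4 panels the lowest mutant array lies above the highest wild-type array.

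Partners and targets of group 11 in nephron progenitors had differences of either sign. Of 8 tested, 5 had differences above 0 and 3 below, with a median of 0.08, and none passed. Six2, the progenitor factor whose enhancer group 11 proteins bind, was at 996 ± 117 and 2018 ± 868 (log2 difference 0.88 ± 0.40), with mutant arrays 2 and 3 highest at 3006 and 2464. Gdnf, the ligand that draws the ureteric bud, was at 0.19 ± 0.58, Itga8, an integrin subunit, at -0.39 ± 0.26, and Eya1, a cofactor of group 11 proteins, at -0.13 ± 0.46.

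Regulators of Hox clusters had differences of either sign. Of 13 tested, 5 had differences above 0 and 8 below, with a median of -0.11, and none passed. The Polycomb repressors Ezh2, Eed and Suz12 had differences of -0.38 ± 0.18, -0.48 ± 0.27 and -0.11 ± 0.34. Kat6a, an acetyltransferase that maintains Hox expression, was at 0.74 ± 0.36 with groups that did not overlap, and Kmt2a, a Trithorax methyltransferase, at 0.15 ± 0.38. Genes beside the clusters gave a median of 0.02 over 11, and none passed the adjusted threshold. At an unadjusted p under 0.05 there was 1 of the 11 (Smug1, higher), where 4.8% of all tested genes were higher and 2.93% lower at that threshold.

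Markers of other cells differed between arrays too. Of the 12 stromal genes, 5 had differences above 0 and 7 below. The 10 endothelial genes tested were all below 0, and 1 passed the test. It was Cldn5, a tight junction protein, at 7988 to 10631 in the wild type and 609 to 1329 in the mutants. Endothelial sums were 14458 to 28361 and 4395 to 6918 with Cldn5, and overlapped without it, at 4684 to 19116 and 3786 to 5601. Cldn5 thus varied less over the wild-type arrays than the sum of the other endothelial markers. Whether its signal came from endothelium was not tested. The 5 podocyte genes measured summed to 7730 to 18326 and 16110 to 24814. Means, wild type first, were 6524 and 7842 for Wt1, 4217 and 11607 for Foxc2, and 1137 and 2098 for Podxl. Nphs1 (96.7 and 152) and Synpo (87.9 and 108) were far dimmer. Foxc2 (1.59 ± 0.36) was the 1 of 4 tested at an unadjusted p under 0.05, where 4.8% of all tested genes were higher. No podocyte gene passed the adjusted threshold. All 6 tested neural genes were below 0 (sums of 1222 to 8252 and 1089 to 1699) and all 5 tested macrophage genes above 0 (1017 to 19473 and 2825 to 4974), and none of either list passed. Cap mesenchyme genes lay on both sides, 3 above 0 and 4 below, and Meox1 was higher in the mutants without overlap (2.18, not past the adjusted threshold). No marker was at 0 on any array, but dim probe sets also read above 0, so this does not show which cells were present. Gapdh probes at the 3 prime end read 12.4 to 87.6 times those at the 5 prime end in the wild type, highest on array 3, and 17.8 to 61.4 times in the mutants. The part of any of these in the values of groups 9 to 11, Hoxb5os and the TALE genes was not tested.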

How the data were processed

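Each deposited value is an intensity for a probe set on a linear scale, made with GCOS per the submitters' processing notes; the algorithm and scaling used were not given in the sources used here. Amplification in 2 rounds favours the 3 prime end, so a probe set far from it can read low. The platform annotation supplied gene names (34958 probe sets with 1 symbol, 932 with several). A pseudocount of 42.4, the 25th percentile, was added before taking log2, which understates changes of dim probe sets. Arrays were quantile normalised, since their log2 medians spanned 0.349. Left out were 64 control probe sets and those whose mean fell below the 40th percentile. Genotypes were compared with limma 3.58.1 (R 4.3.3; group only, mean-variance trend, two-sided), adjusting by Benjamini-Hochberg over 27022 probe sets at 0.05. Exact permutation tests compared group means of log2 values. The number of arrays limits the precision.

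The members and lists were chosen with earlier results of these data known. Values on every array were given by rule for the 6 tested members with the lowest p, any without overlap, Hoxb7 and the genes of groups 9 to 11. Genes that are no members were to be named only past the adjusted threshold, as Cldn5 was, or, for Lhx1, as the mutated gene. None of the others named here passed, and they, with Hoxd13, were chosen after their values were seen. Alternatives covered scaling, pseudocount, filter, variance model, array weights, replicate numbers, probe set choice and each array left out; sums of markers without Cldn5 or Lhx1 were added after seeing the data.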

Additional observations from a re-analysis of the deposited data

Results flagged for a closer look

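Dixon's test on the normalised log2 values was applied to 66 groups (33 Hox genes in 2 genotypes). An extreme array was found in 4 of them, where chance gives about 3.3, or about 1 group in 20. Hoxa9 read 60020 on wild-type array 4, against 27971 to 42768 on the other wild-type arrays. Hoxc6 read 930 on wild-type array 3, against 291 to 521. Hoxc8 read 253 on wild-type array 5, against 1576 to 2855. Hoxd1, which lay below the filter, read 874 on mutant array 3, against 36.1 to 55.0 on the other mutants.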

How the results depend on the processing

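No Hox gene and no TALE cofactor passed the adjusted threshold with limma in any of the 20 alternatives run, and the number of Hox genes at an unadjusted p under 0.05 was 1 to 3. The median difference of all Hox genes stayed between 0.06 and 0.31. That of HoxC genes was -0.031 without the filter, 0.66 without wild-type arrays 1 and 3, and 0.11 to 0.75 with each array left out (0.75 without mutant array 4). Those of HoxA, HoxB and HoxD genes ran from 0.05 to 0.58, -0.08 to 0.29 and 0.06 to 0.41, and the Hoxa11 difference from 0.24 to 0.58. Same-numbered arrays of both genotypes did not deviate together (r of -0.11 to 0.05 across probe sets). These correlations cannot show whether samples shared a litter or a day, and the labels give no pairing by replicate number. With that number as a replicate block, which also leaves out wild-type array 5, probe sets called went from 9 to 0 (1756 at an unadjusted p under 0.05). They were also 0 without wild-type arrays 1 and 3 (2012 at an unadjusted p under 0.05), and 3 to 8 with each array left out, lowest without wild-type arrays 2 or 4 or mutant arrays 2 or 3. Signs turned for Hoxa9 with median centring (-0.0072), for Hoxb9 with array weights (-0.015), without wild-type arrays 1 and 3 (-0.036) and with single arrays left out (-0.16 to 0.51), for Hoxd9 with single arrays left out (-0.015 to 0.66), and for Meis1 with probe sets averaged (-0.044). The cause was not tested. The differences of Hoxc10, Hoxd10, Hoxd11 and Hoxb5os kept their sign in all 20, at 0.69 to 0.99, 0.43 to 0.65, 0.59 to 1.06 and 1.20 to 1.59, and the adjusted p of Hoxb5os was 0.133 to 0.734.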
